A study of Mus musculus with 55 samples.

Results

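The Hedgehog genes described here are 3 ligands (Shh, Ihh and Dhh), the receptor Ptch1, the signal transducer Smo, the ligand-binding inhibitor Hhip and the transcription factors Gli1, Gli2 and Gli3. They were taken by symbol from the deposited table, keeping for each symbol the transcript whose mean across libraries was highest; these 9 genes are 9 of 24478 symbols. RNA sequencing had been done on 10 cell populations sorted by FACS from the livers of C57B/L6 mice (the strain as the labels spell it), either normal or after partial hepatectomy (PH, surgical removal of part of the liver), in 55 libraries. No label gives a time after surgery, an age, a sex, a batch, the sorting antibodies or whether animals were pooled.

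In normal liver there were 4 libraries each of clonal biliary epithelial cells (cBEC), biliary epithelial cells (BEC) and hepatocytes (HC), 3 of liver sinusoidal endothelial cells (LSEC), and 2 each of non progenitor ducts (NPD), endothelial cells (EC), blood cells, Thy1 cells, Kupffer cells (KC) and hepatic stellate cells (HSC). Of the libraries made after PH, LSEC had 5, HC had 4, HSC, KC and EC had 3 each, and blood, Thy1, NPD, BEC and cBEC had 2 each. Nothing in the labels says that libraries of a group came from separate animals, so the p-values measure the spread between these libraries, which may be technical. Levels are FPKM, which scale reads to transcript length and library size, so levels can be compared between genes; the read depth behind them is unknown. Differences are on the log2(FPKM + 1) scale, which understates the change of low genes, and a gene was called when limma gave a Benjamini-Hochberg adjusted p under 0.05 over all genes tested. Library sums of FPKM lay between 624726 and 1203197, and libraries of a group correlated at 0.922 to 0.996.

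Hedgehog ligands are secreted proteins that bind Ptch1 on a receiving cell. Free Ptch1 holds Smo inactive; ligand binding releases Smo, which acts through the primary cilium to turn Gli proteins into activators of transcription. Ptch1, Hhip and Gli1 are themselves common target genes of the pathway, and in liver the pathway is best known from ducts, mesenchymal cells and injury.

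Marker genes were used to check the labels, as the mean log2(FPKM + 1) of each list (its score). The stellate list was at 8.31 to 9.03 in HSC, the duct list at 8.59 to 9.28 in cBEC and BEC, the Kupffer list at 10.55 to 11.20 in KC and the hepatocyte list at 12.08 to 12.87 in HC, each with all its genes at 1 FPKM or more in every library. Some sorts went against their names. In NPD all 5 mesothelial genes were present and scored 9.12 to 9.33, above the duct list at 7.12 to 7.97. In Thy1 cells the mesothelial list (7.13 to 8.31), the endothelial list (6.95 to 8.24) and the duct list (5.04 to 7.56) stood beside the portal fibroblast list (5.30 to 7.39). In PH blood the blood list was at 4.70 and 5.36, below the Kupffer list at 9.55 and 10.35. In bulk RNA, fewer cells of a type and less RNA per cell cannot be told apart.

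Upstream sequences are shown for Dhh, which had the largest called change after PH, and Hhip, which had the largest called difference between HSC and Thy1 cells. They are the 250 bases before the RefSeq start in GRCm38.p6, at chr15:98898541-98898790 (minus strand) for Dhh and chr8:80058009-80058258 (minus strand) for Hhip, with capitals marking the inner 6 letters of the Gli consensus, GGGTGG, or its reverse complement, CCACCC.
Dhh: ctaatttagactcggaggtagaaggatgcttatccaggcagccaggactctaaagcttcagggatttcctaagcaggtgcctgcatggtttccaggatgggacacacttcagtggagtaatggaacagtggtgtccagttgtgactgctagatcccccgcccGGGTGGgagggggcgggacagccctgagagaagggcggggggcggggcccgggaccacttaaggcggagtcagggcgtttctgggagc
Hhip: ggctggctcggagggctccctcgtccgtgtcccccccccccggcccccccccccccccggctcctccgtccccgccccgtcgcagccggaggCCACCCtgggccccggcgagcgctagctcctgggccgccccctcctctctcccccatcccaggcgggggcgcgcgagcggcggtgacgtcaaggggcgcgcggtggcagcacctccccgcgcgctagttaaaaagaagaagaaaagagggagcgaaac
The full consensus TGGGTGGTC (reverse complement GACCACCCA) was in 0 of the 7 member promoters matched in the RefSeq table and in 83 of 32851 promoters overall (0.253%), searched on both strands over 300 bases. The 6-letter core, which lies within the consensus, was in 6 of the 7 (Ihh, Dhh, Smo, Gli2, Gli3 and Hhip) and in 31.5% of all promoters. Member promoters were 61.7% (Dhh) to 76.3% (Ptch1) G and C, against a median of 52.7% for all promoters. These matches describe letters only.

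The level depended on the sorted population in normal liver for 8 of the 9 genes (limma, F test over 10 populations), where 93.3% of all genes tested were called, so that share says little about Hedgehog genes. The exception was Shh (adjusted p 0.431 in limma). Whether the response to PH differed between populations was tested in the same way, and 5 of 9 were called (Dhh, Smo, Gli1, Gli2 and Hhip) where 47.8% of all genes were. By group mean in normal liver, Smo, Gli1 and Gli2 were highest in NPD, Gli3 and Hhip in HSC, Shh and Ihh in cBEC, Ptch1 in BEC and Dhh in EC, as the plot of all 9 genes by library shows.

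**Figure D1:**
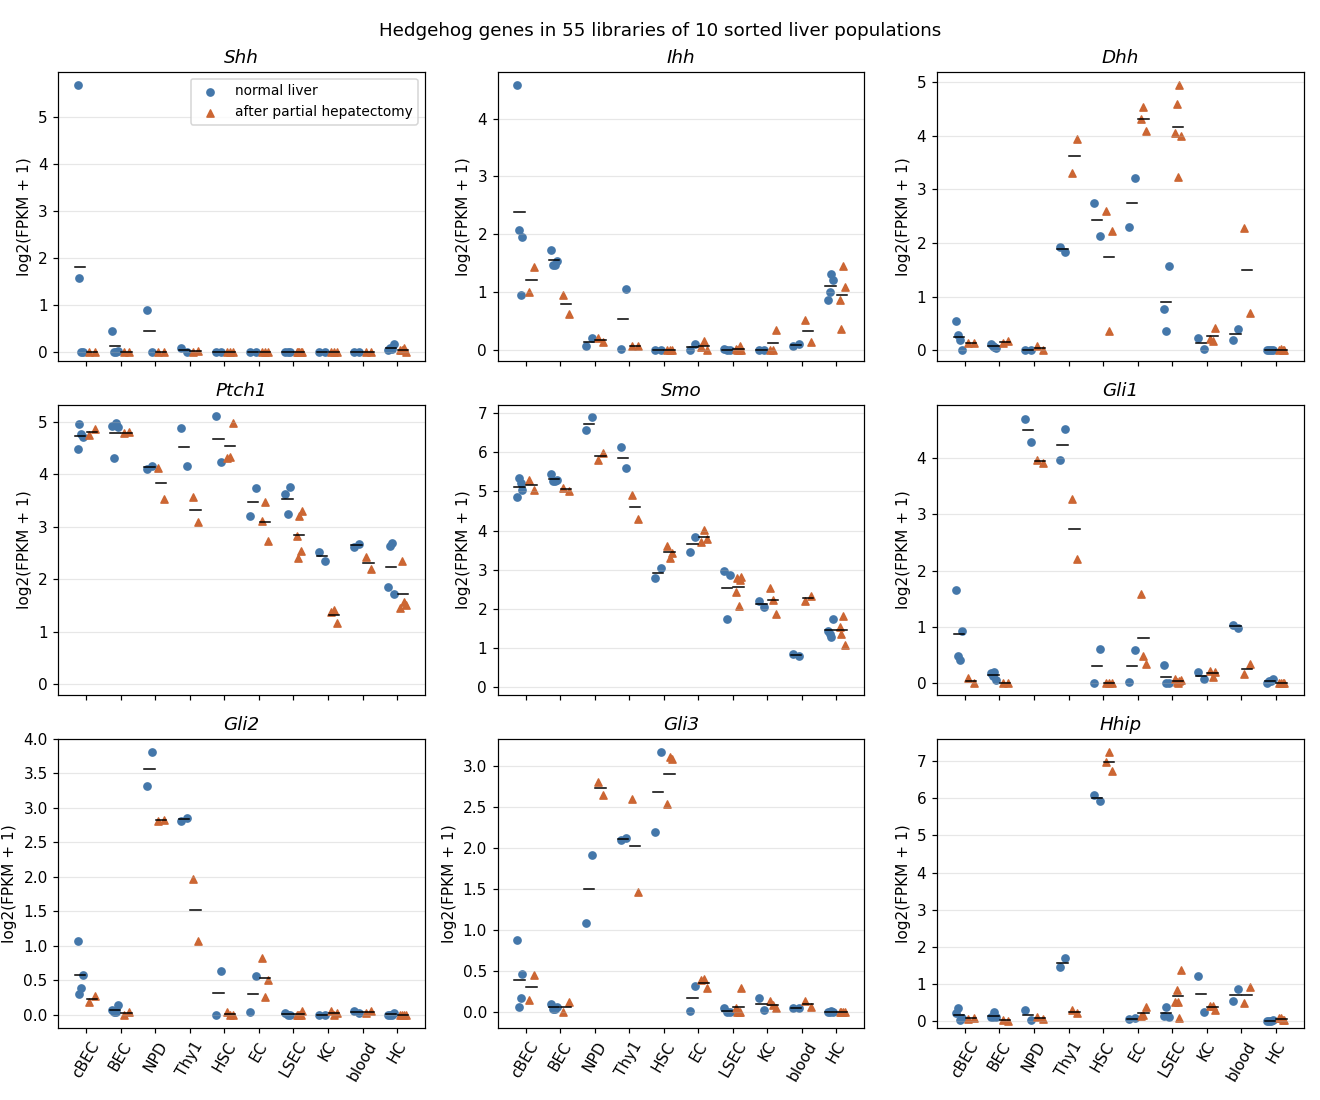
Level of each Hedgehog gene as log2(FPKM + 1) in the 55 libraries, by sorted population, with circles for normal liver, triangles for liver after partial hepatectomy and black bars for group means; vertical scales differ between panels. Hhip stood high in HSC, Gli1 and Gli2 in NPD and Thy1 cells, Dhh in EC and, after hepatectomy, LSEC, and Shh in a single normal cBEC library at 50.35 FPKM.

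Shh (NM_009170, chromosome 5, 28783380 to 28793641, minus strand, mm9), the ligand best known from embryonic patterning, was above 2 FPKM in 1 library of 55. Normal cBEC libraries 1 to 4 had 50.35, 1.96, 0 and 0 FPKM, and both PH cBEC libraries were listed at 0. Outside cBEC the highest value was 0.858 FPKM, in 1 of 2 normal NPD libraries, and EC, LSEC, blood, KC and HSC were listed at 0 in every library of both treatments. The change in cBEC was -1.81 (SE 1.68, limma adjusted p 0.732) and the groups overlapped. In that same library the mesothelial score was 5.92 and the smooth muscle score 6.02, against 3.51 to 4.20 and 2.28 to 5.26 in the other 3; their part in the Shh value was not tested.

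Ihh (NM_010544, chromosome 1, 74991889 to 74998246, minus strand), the family's ligand known from cartilage and gut epithelium, had its highest group means in cBEC, BEC and HC in both treatments. It was at 22.94, 3.22, 0.934 and 2.86 FPKM in normal cBEC, at 2.29, 1.78, 1.76 and 1.89 in normal BEC, and at 0.82, 1.0, 1.48 and 1.31 in normal HC. After PH it was at 0.992 and 1.70 FPKM in cBEC, 0.930 and 0.534 in BEC, and 0.81, 0.28, 1.73 and 1.13 in HC. Normal Thy1 library 2, at 1.07 FPKM, lay within the normal HC range, while the other normal Thy1 library had 0.00288 and normal NPD, also a duct sort by label, had 0.0445 and 0.156. The duct list scored 7.56 in normal Thy1 library 2 and 5.04 in normal Thy1 library 1, and its part was not tested. The HSC libraries were all listed at 0, and no EC or LSEC library exceeded 0.1035 FPKM. Both PH BEC libraries lay below all 4 normal ones, a difference of -0.76 (SE 0.24) that was not called (limma adjusted p 0.172). In cBEC the groups overlapped, with a difference of -1.18 (SE 0.93, limma adjusted p 0.687), and in HC it was -0.16 (SE 0.24, limma adjusted p 0.765).

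Dhh (NM_007857, chromosome 15, 98721586 to 98728971, minus strand), a ligand known from Schwann cells, testis and endothelium, was the ligand called in a comparison of PH with normal liver. In LSEC it was at 0.717, 0.291 and 1.99 FPKM in normal liver and at 15.56, 23.15, 8.39, 29.80 and 14.95 FPKM after PH. Every PH library stood above every normal one, and the group means differed 18.4-fold, from 0.999 ± 0.883 (SD, n = 3) to 18.4 ± 8.26 FPKM (SD, n = 5). Dhh rose by 3.25 on the log2 scale (SE 0.39, limma adjusted p 0.00207). It was the 1 call among 3 Hedgehog genes tested in LSEC, where 8.46% of all genes were called. It was called without each of the 8 libraries in turn (limma adjusted p 0.000965 to 0.0176), but the fold of means rests on low normal values: without normal library 3 it was 36.4-fold, and without any other library 13.6-fold to 20.9-fold.

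The sinusoidal endothelial list, 5 genes that include the scavenger receptors Stab1 and Stab2, moved in the opposite direction to Dhh. All 5 genes were at 1 FPKM or more in every LSEC library, with a summed level of 4238 to 8309 FPKM in normal liver and 1330 to 4862 after PH. Within each treatment the order of LSEC libraries by Dhh was the reverse of their order by this score. The score was 9.96, 10.33 and 9.32 in normal LSEC libraries 1, 2 and 3. In PH LSEC libraries 1, 2, 3, 4 and 5 it was 8.69, 8.14, 9.69, 7.78 and 9.01. The endothelial list was lower after PH as well, summing to 2609 to 3238 FPKM in normal LSEC and 1695 to 2542 after PH. The Schwann list, another known Dhh source, scored 0.26 at most in LSEC. The part of these lists in the rise was not tested.

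**Figure D2:**
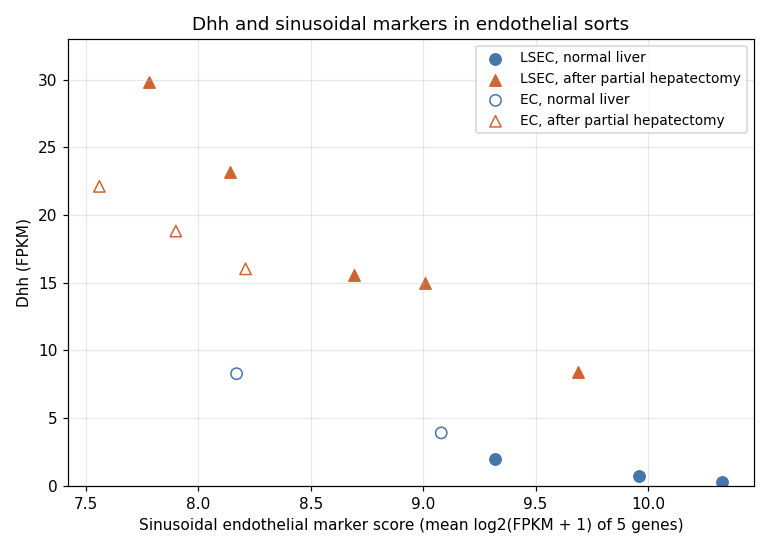
Dhh (FPKM) against the sinusoidal endothelial marker score of each LSEC (filled) and EC (open) library, with circles for normal liver and triangles for liver after partial hepatectomy. Within each sort and treatment Dhh was lower where the score was higher, and the PH libraries lay at 8.39 to 29.80 FPKM against 0.291 to 8.28 in normal liver.

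In EC, Dhh was at 3.91 and 8.28 FPKM in normal liver and at 18.81, 22.11 and 16.02 after PH, again with no overlap. The difference of 1.55 (SE 0.31) was not called (limma adjusted p 0.203). Limma called 0 of 3 Hedgehog genes in EC and 0.0249% of all genes. At an unadjusted limma p under 0.05 were 1 of the 3 and 1297 of 12064 genes overall. Between EC and LSEC of normal liver Dhh differed by 1.85 (SE 0.48) with no overlap and no call (limma adjusted p 0.304). There limma also called 0 of 3, where 0.00843% of all genes were called. At an unadjusted limma p under 0.05 were 2 of the 3 and 1097 of 11868 genes overall. After PH the EC and LSEC ranges overlapped.

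Thy1 cells and HSC held Dhh as well. Thy1 libraries had 2.83 and 2.58 FPKM in normal liver and 8.88 and 14.33 after PH, a difference of 1.73 (SE 0.35, limma adjusted p 0.148). The endothelial list scored 7.64 and 6.95 in normal Thy1 and 7.28 and 8.24 after PH, with all 5 genes at 1 FPKM or more; its part was not tested. In HSC the values were 5.70 and 3.40 FPKM in normal liver and 5.09, 0.293 and 3.70 after PH. PH HSC library 2, the low one, also had the lowest endothelial score of the HSC libraries (0.45, against 1.95 to 5.90). The other HSC libraries did not follow that order. Normal libraries 1 and 2 had 5.70 and 3.40 FPKM of Dhh at scores of 3.61 and 5.90. PH libraries 1 and 3 had 5.09 and 3.70 FPKM at scores of 1.95 and 2.09. The part of endothelial cells in the HSC values was not tested. In blood Dhh went from 0.141 and 0.325 to 3.84 and 0.632 FPKM, too low for the filter, and HC, NPD, cBEC, BEC and KC stayed at or under 0.462 FPKM.

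Ptch1 (NM_008957, chromosome 13, 63609636 to 63667043, minus strand), the ligand receptor, was detected in every library. It was highest in biliary and stellate sorts: 21.37, 30.22, 26.4 and 25.1 FPKM in normal cBEC, 29.4, 18.84, 30.31 and 29.0 in normal BEC, and 33.66 and 17.79 in normal HSC. Lower levels were found in NPD (16.2 and 16.9), LSEC (11.3, 8.43 and 12.5), EC (8.18 and 12.4), blood (5.15 and 5.40), KC (4.72 and 4.12) and HC (2.63, 5.22, 5.45 and 2.29). The BEC, cBEC, HSC and Thy1 ranges overlapped their neighbours in this order, whereas Thy1 (28.49 and 16.90) and NPD were separated only narrowly.

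After PH, Ptch1 was called in KC alone of the 10 populations; the differences between populations in its response were not called (limma adjusted p 0.142). KC went from 4.72 and 4.12 FPKM to 1.59, 1.67 and 1.24, and the groups did not overlap. Ptch1 fell by 1.12 on the log2 scale (SE 0.19, limma adjusted p 0.00883), 1 of 2 Hedgehog genes tested, where 36.8% of all genes were called. The call was lost without normal KC library 1 (limma adjusted p 0.0916) or normal library 2 (limma adjusted p 0.0696), where the lone normal library left is assumed to vary like the PH ones. The sinusoidal list differed too: its 5 genes summed to 2877 to 3941 FPKM in normal KC and to 291 to 498 after PH, while normal LSEC held 8.43 to 12.5 FPKM of Ptch1. The endothelial list went from 1146 to 1460 down to 284 to 508 FPKM, and the Kupffer list from 10760 to 12070 up to 19090 to 21470. The part of these lists in the fall was not tested.

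In cBEC, Ptch1 was at 25.97 and 28.20 FPKM after PH, and in BEC at 26.44 and 26.89, within the normal ranges. The differences were 0.08 (SE 0.18) and 0.01 (SE 0.21). Limma called 0 of 4 Hedgehog genes in cBEC against 0.0681% of all genes, and 0 of 3 in BEC against 1.81%. In cBEC 0 of the 4 were at an unadjusted limma p under 0.05, against 1346 of 13225 genes overall. In BEC 1 of the 3 was, against 2097 of 12851. In HC limma called 0 of 3 against 6.19%. There 0 of the 3 and 2157 of 10029 genes overall were at an unadjusted limma p under 0.05. Ptch1 in HC was at 1.72, 4.06, 1.96 and 1.86 FPKM after PH. In LSEC the PH values of 6.06, 4.27, 8.24, 4.84 and 8.82 FPKM overlapped the normal ones, with a difference of -0.68 (SE 0.25, limma adjusted p 0.117).

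Smo (NM_176996, chromosome 6, 29685497 to 29711366, plus strand), the membrane protein that passes the signal on, spanned a wide range of levels between sorts. Normal NPD had 93.39 and 118 FPKM and Thy1 cells 69.0 and 47.4; BEC (37.4 to 42.7) and cBEC (28.1 to 39.5) followed and overlapped. EC (10.0 and 13.3), HSC (5.91 and 7.22), LSEC (6.78, 2.33 and 6.29), KC (3.57 and 3.13), HC (1.43 to 2.33) and blood (0.778 and 0.732) were lower.

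In NPD, Smo was at 55.14 and 62.39 FPKM after PH, below both normal libraries. It fell by 0.83 on the log2 scale (SE 0.19, limma adjusted p 0.0482), the 1 call among 5 Hedgehog genes tested, where 15.2% of all genes were called. This call lay at the threshold: it was lost without PH library 1 (limma adjusted p 0.391), without PH library 2 (0.262), with a pseudocount of 0.1 (0.0514), with no filter (0.0909), after quantile normalization (0.0523) and in a single fit of all groups (0.0539). Several marker lists differed between these libraries without overlap. The mesothelial list summed to 4806 to 5143 FPKM in normal NPD and 3655 to 4182 after PH, the portal fibroblast list to 1789 to 1827 and 1497 to 1598, the endothelial list to 157 to 171 and 46.9 to 57.4, and the Kupffer list to 79.4 to 172 and 4.06 to 7.11. The duct list was higher after PH, at 3960 to 4738 FPKM against 2592 to 3812. Their part in the fall of Smo was not tested.

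In blood, Smo was at 3.57 and 4.03 FPKM after PH, above both normal libraries. It rose by 1.45 (SE 0.18, limma adjusted p 0.00287), 1 of 2 Hedgehog genes tested, where 64% of all genes were called and the median change of all genes was -0.31. The Kupffer list was higher beside it, its 5 genes summing to 459 to 739 FPKM in normal blood and 6443 to 11520 after PH, and the blood list went from 4061 to 4246 down to 525.7 to 983 FPKM. The sinusoidal list was higher as well, at 630.0 to 721 FPKM in normal blood and 2289 to 5082 after PH. KC libraries had 2.67 to 4.78 FPKM of Smo and LSEC libraries 2.33 to 6.78, and PH blood lay within both ranges. The part of these lists was not tested. Without PH blood library 1 or 2 Smo fell below the filter and was not tested. Without normal blood library 1 or 2 it was still called (limma adjusted p 0.0469 and 0.0470), but not when the filter was also loosened to the smaller group, an alternative chosen after seeing the data (limma adjusted p 0.0635 and 0.06335).

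Hhip (NM_020259, chromosome 8, 82489750 to 82581907, minus strand), a membrane protein that binds and sequesters all 3 ligands, was a stellate gene. HSC had 67.0 and 59.6 FPKM in normal liver, while the next population, Thy1 cells, had 1.72 and 2.23, and no other normal library exceeded 1.32. After PH the HSC libraries were at 126, 150 and 106 FPKM, all above the normal ones, and no library of another population exceeded 1.593. The change of 0.99 (SE 0.28, 2.01-fold between means) was not called (limma adjusted p 0.450). Limma called 0 of 5 Hedgehog genes in HSC and 0.00853% of all genes. At an unadjusted limma p under 0.05 were 1 of the 5 and 995 of 11729 genes overall. In the single fit of all 20 groups Hhip in HSC was called (limma adjusted p 0.00237). That fit takes a single spread per gene from all groups, most of them low in Hhip. Its p therefore does not measure the spread between HSC libraries. The stellate list scored 8.31 and 8.87 in normal HSC and 8.68 to 9.03 after PH. Lists of other cells were lower after PH without overlap: the Kupffer list summed to 56.6 to 675 FPKM in normal HSC and 0.515 to 37.3 after PH, the sinusoidal list to 152.5 to 851 and 6.67 to 64.5, and the endothelial list to 56.6 to 316 and 2.31 to 16.8. Their part in the Hhip values was not tested.

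Gli1 (NM_010296, chromosome 10, 126766938 to 126778635, minus strand), the activator and most used readout of the pathway, was concentrated in NPD and Thy1 cells. NPD had 25.0 and 18.6 FPKM in normal liver and 14.72 and 14.09 after PH; Thy1 cells had 14.66 and 21.85 in normal liver and 8.73 and 3.63 after PH. Elsewhere the highest library was 2.17 FPKM, normal cBEC library 1. HSC, with the most Hhip and much Ptch1, had 0 and 0.528 FPKM of Gli1 in normal liver and was listed at 0 in all 3 PH libraries.

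Gli2 (NM_001081125, chromosome 1, 120730638 to 120950196, minus strand), the main activator downstream of Smo, followed the same sorts. Values were 8.997 and 13.0 FPKM in normal NPD, 6.04 and 6.05 in PH NPD, 6.04 and 6.26 in normal Thy1 cells, and 2.92 and 1.10 in PH Thy1 cells. Over the 20 group means Gli1 and Gli2 had a correlation of 0.981, given as a description, since the means share libraries and the same 2 sorts dominate both. Gli3 (NM_008130, chromosome 13, 15555556 to 15821858, plus strand), mostly a repressor when the pathway is off, differed: HSC led with 3.58 and 8.04 FPKM in normal liver and 4.81, 7.64 and 7.499 after PH. Gli3 was at 3.29 and 3.35 FPKM in normal Thy1 cells and 1.12 and 2.78 in normal NPD.

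In NPD after PH, Gli1 differed by -0.55 (SE 0.20, limma adjusted p 0.127), Gli2 by -0.75 (SE 0.24, limma adjusted p 0.0976) and Gli3, at 6.01 and 5.30 FPKM, by 1.23 (SE 0.36, limma adjusted p 0.0772). None was called. Each pair of groups was free of overlap, a weak criterion with 2 libraries per group, as in Thy1 cells below. The share of all genes free of overlap was not counted. In Thy1 cells limma called 0 of 7 Hedgehog genes and 0.00747% of all genes. At an unadjusted limma p under 0.05 were 6 of the 7 and 2417 of 13389 genes overall. Ptch1 (10.80 and 7.47 FPKM after PH), Smo (29.1 and 18.8), Gli1, Gli2 and Hhip (0.222 and 0.161) all lay below both normal libraries, with differences of -1.20, -1.26, -1.50, -1.32 and -1.32. Their limma adjusted p ran from 0.183 (Hhip) to 0.231 (Gli2), and in the single fit of all groups these 5 and Dhh were called. The single fit takes its spread per gene from all groups, so it does not measure the spread between Thy1 libraries. Its share of all genes called is not given here. The portal fibroblast list, with all 6 genes at 1 FPKM or more, summed to 1339 to 1727 FPKM in normal Thy1 cells and 730 to 1271 after PH, and the mesothelial list to 1561 to 2336 and 951 to 1502; their part was not tested.

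**Figure D3:**
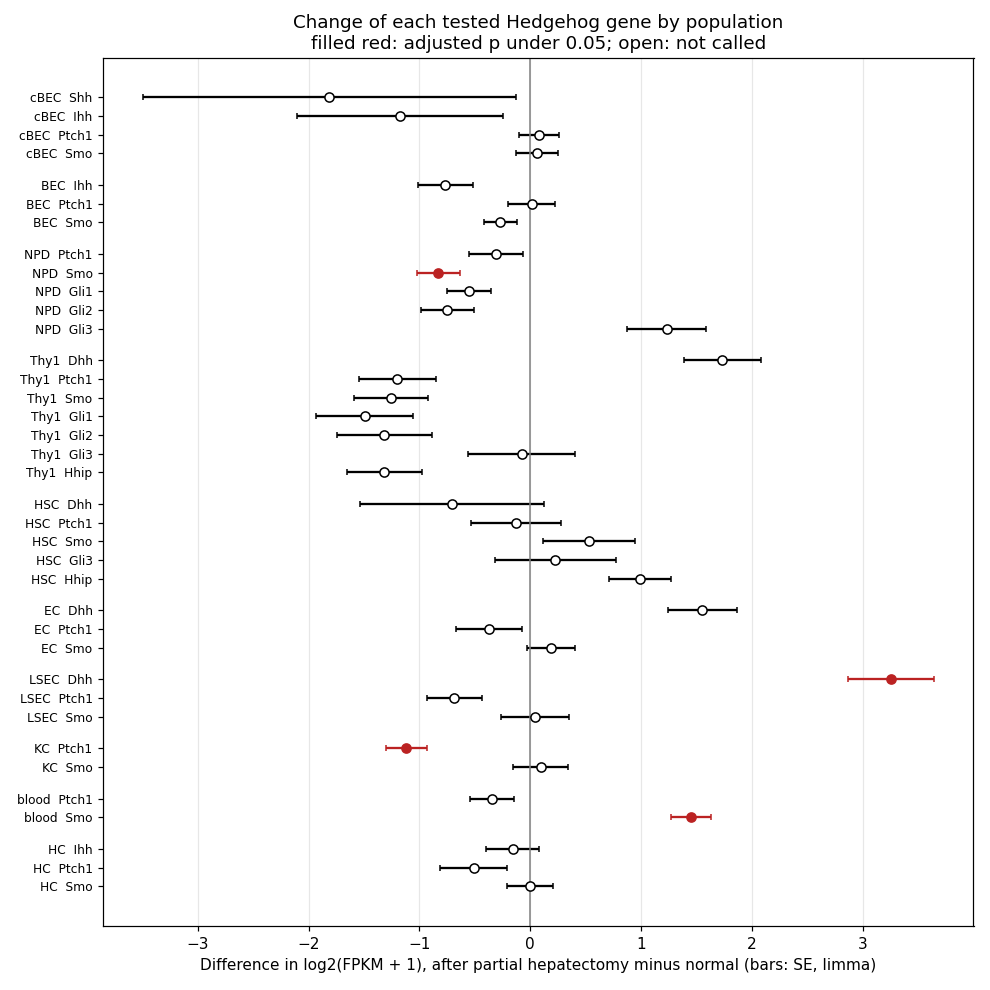
Difference in log2(FPKM + 1) between liver after partial hepatectomy and normal liver for each Hedgehog gene that passed the filter, by population, with bars for the standard error in limma and filled red points for adjusted p under 0.05. The 4 calls, in 3 genes, were Dhh in LSEC (3.25), Smo in blood (1.45) and NPD (-0.83), and Ptch1 in KC (-1.12).

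Between HSC and Thy1 cells of normal liver, 4 of 7 Hedgehog genes tested were called, against 9.55% of all genes. Hhip was higher in HSC by 4.44 (SE 0.33, limma adjusted p 0.00627), and Smo (-2.95, limma adjusted p 0.0164), Gli1 (-3.94, limma adjusted p 0.0210) and Gli2 (-2.52, limma adjusted p 0.0425) were lower. Ptch1 (0.15), Gli3 (0.57) and Dhh (0.55) were not called. Without Thy1 library 1 or 2, Gli1 and Gli2 fell below the filter and were not tested, and Hhip and Smo were still called. When the filter was also loosened to the smaller group, chosen after seeing the data, none of the 4 was called without either Thy1 library (limma adjusted p 0.0631 to 0.272). Gli2 also missed the threshold with a pseudocount of 0.1 (0.0951), with no filter (0.0791) and after upper-quartile scaling (0.0544) or quantile normalization (0.110). The mesothelial list scored 7.58 to 8.31 in normal Thy1 cells and 0.18 to 0.61 in normal HSC, where Upk1b was at 0. Other lists differed without overlap as well. In normal Thy1 cells and normal HSC the portal fibroblast list scored 7.09 to 7.39 and 2.22 to 2.68, and the duct list 5.04 to 7.56 and 0.06 to 1.02. The endothelial list scored 6.95 to 7.64 and 3.61 to 5.90. The stellate list was higher in HSC, at 8.31 to 8.87 against 3.15 to 3.59. The part of these lists was not tested.

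Between cBEC and NPD of normal liver, 4 of 7 were called, against 29.7% of all genes. Gli1 (-3.62, SE 0.42, limma adjusted p 0.000603), Gli2 (-2.99, SE 0.36, limma adjusted p 0.000735) and Smo (-1.62, SE 0.20, limma adjusted p 0.000843) were lower in cBEC and were called without each library in turn. Ptch1 was higher in cBEC by 0.60 (limma adjusted p 0.0463), a call lost without cBEC library 2, 3 or 4 or either NPD library, among other settings (limma adjusted p up to 0.245). Without normal cBEC library 1, 6 members were called, Ihh and Gli3 being added, and the share of all genes called there is not given. Gli1, the mesothelial list and the portal fibroblast list were all higher in normal NPD than in normal cBEC. The mesothelial list summed to 72 to 412 FPKM in normal cBEC and 4806 to 5143 in normal NPD. The portal fibroblast list scored 3.87 to 5.57 in normal cBEC and 6.25 to 6.42 in normal NPD. The duct list was lower in NPD, at 7.12 to 7.50 against 8.83 to 9.04. The part of these cell types in the Gli difference was not tested.

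**Figure D4:**
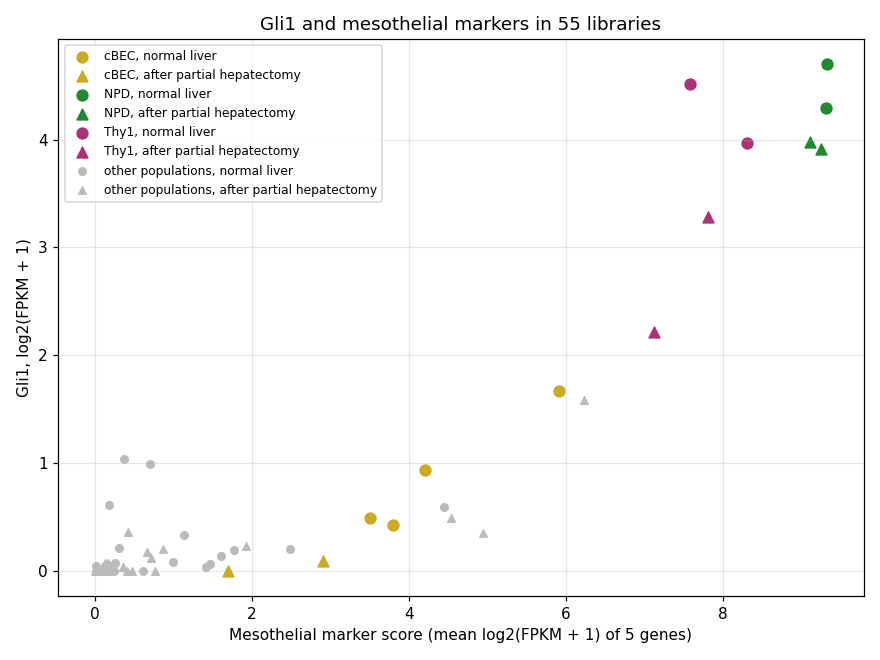
Gli1 as log2(FPKM + 1) against the mesothelial marker score in all 55 libraries, with circles for normal liver and triangles for liver after partial hepatectomy. The 8 NPD and Thy1 libraries, with scores of 7.13 to 9.33, held 3.63 to 25.0 FPKM of Gli1, and no library with a lower score exceeded 2.17 FPKM. The portal fibroblast list, not drawn, scored 5.30 to 7.39 in these 8 libraries and 5.57 at most in the others.

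The genes most like each member over the 20 group means, among 13115 genes, were named by a rule and describe pattern only. Hhip was nearest to Sprn (0.996), Ednra (0.989) and Robo2 (0.985), Gli1 to Wnt11 (0.990) and Gli2 to Prdm6 (0.996). Gli3 was nearest to Col5a1 (0.974), Ptch1 to Cc2d2a (0.964), Smo to Prkd1 (0.962), Ihh to Sult1c2 (0.920) and Dhh to Rnf165 (0.916). Shh was nearest to Muc4, Ppy and Sst (0.991 each), Ppy and Sst being genes of pancreatic islet hormones; its pattern rests on normal cBEC library 1.

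A list of 37 other pathway genes gave the surroundings of these members. In NPD 7 of 32 tested were called (3 higher, 4 lower; median change -0.12, against 0.09 for all genes), where 15.2% of all genes were called. The marker lists that differed beside Smo in NPD also stand beside these genes. The co-receptor Gas1 had a mean of 594 ± 149 FPKM (SD, n = 2) without surgery, against 160.0 ± 4.29 (SD, n = 2) with it, and fell by 1.86 (SE 0.24, adjusted p 0.0149 in limma). Gpc3, a glypican that competes with Ptch1 for ligand, went from a mean of 1129 to a mean of 313 FPKM and fell by 1.85 (SE 0.20, limma adjusted p 0.0106). Bmp4, a reported Gli target, fell by 1.89 (SE 0.16, limma adjusted p 0.00871). Gas1 also fell in BEC, by 1.35 (limma adjusted p 0.0468), the 1 call among 27 tested where 1.81% of all genes were called, and in HC, by 1.31 (limma adjusted p 0.0109). Other lists were lower in PH BEC too: the mesothelial list summed to 11.04 to 32.1 FPKM in normal BEC and 2.12 to 4.11 after PH, the Kupffer list to 55.9 to 243 and 0.183 to 3.15, and the endothelial list to 26.0 to 109 and 0.783 to 1.81. Their part in the Gas1 fall was not tested.

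In LSEC 1 of 23 was called, where 8.46% of all genes were, the cyclin gene Ccnd1, which fell by 1.76 (SE 0.31, limma adjusted p 0.0106). The list's median there was 0.03, against -0.03 for all genes. In HC 2 of 13 were called, where 6.19% of all genes were, Gas1 lower and Ccnd1 higher, by 1.74 (SE 0.33, limma adjusted p 0.0145). In KC 5 of 17 were called, where 36.8% of all genes were; all 5 were lower, and the list's median was -0.39 against -0.04. The cyclin gene Ccnd2 there fell by 2.38 (SE 0.21, limma adjusted p 0.00176) and Snai1, a transcription factor, by 1.49 (SE 0.37, limma adjusted p 0.0279), beside the lower sinusoidal list. In blood 16 of 22 were called (6 higher, 10 lower), where 64% of all genes were, among them the survival gene Bcl2, which fell by 4.38, and the ciliary kinesin Kif7, which rose by 2.002. Limma called 0 of 31 in HSC, 0 of 33 in Thy1 cells, 0 of 30 in cBEC and 0 of 29 in EC. In the same order, it called 0.00853%, 0.00747%, 0.0681% and 0.0249% of all genes. At an unadjusted limma p under 0.05 were 4, 10, 9 and 4 of the listed genes. Of all genes, 995 of 11729, 2417 of 13389, 1346 of 13225 and 1297 of 12064 were. Foxf1, a reported Gli target, was highest in HSC at 103 ± 16.3 FPKM (SD, n = 2) in normal liver and 171 ± 29.1 (SD, n = 3) after PH, although Gli1 was at or near 0 there.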

How the data were processed

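Values are deposited FPKM, a unit that the authors' table name states and its headers do not. CASAVA 1.8.2, Bowtie 1.0.0 and mm9 are named in the submitters' processing notes; the counting tool and its use of strand are not given in the sources used here, so reads of overlapping genes cannot be told apart. The table has 36141 rows of RefSeq transcripts, and its starts count from 0 (971 of 982 microRNA rows have end minus start equal to the hairpin length), so 1 was added. Hepatocyte columns are rounded to 2 decimals. There were 0 other numeric columns of samples. Groups follow the titles; 1 library titled PH cBEC is tagged normal and was kept as titled. Read depth is unknown, so no counting interval is given.

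The filter asked for 1 FPKM or more in a number of fitted libraries equal to the size of the smallest group compared. Genes passing it were tested with limma 3.58.1 (trend, robust, two-sided, Benjamini-Hochberg over all genes tested) in R 4.3.3 on log2(FPKM + 1), using only the groups compared; F tests used 27 normal or all 55 libraries. Values in every library are shown for all 9 members in the plot by library, and the text prints only part of them. Of the other pathway genes, up to 3 per comparison were named, smallest p leading, if called, changed by 1 or more on the log2 scale and free of overlap; Foxf1 was chosen after its values were seen, and 1 listed gene is not reported here. Genes of like pattern were the up to 3 with the highest Pearson correlation over 20 group means. Members and lists were chosen with earlier results of these data known. Alternatives were a pseudocount of 0.1, no filter, 2 scalings, the mean over a symbol's rows, a single fit of 20 groups, a replicate block and leaving out each library, with the filter minimum kept as in the full fit. Lowering that minimum with the group left smaller was added after the results were seen, because some members were otherwise not tested. The fits were tested on simulated data: of 200 genes given a log2 change of 2, 188 were recovered in the LSEC design, 165 in KC, 96 in NPD, 95 in blood and 144 in EC. In HSC, in Thy1 cells and between HSC and Thy1 cells of normal liver 0 were recovered. The 200 were drawn from genes above a set mean level, with normally distributed noise. Recovery also depends on the share of genes changed. These counts therefore do not measure the power of the real fits, or power for low genes. Figures used Python 3.11.15 and matplotlib 3.10.9.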

Additional observations from a re-analysis of the deposited data

Results flagged for a closer look

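Libraries far from the rest of their group were sought in 19 combinations of a member and a group of 4 or 5 libraries with at least 1 FPKM in the highest, and 4 stood out, where chance gives about 0.95 (about 1 in 20). Shh was at 50.35 FPKM and Ihh at 22.94 FPKM in normal cBEC library 1, both the highest of 4. Ptch1 was at 18.84 FPKM in normal BEC library 2, the lowest of 4, and at 4.06 FPKM in PH HC library 2, the highest of 4.

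The response to PH differed between populations, by the F test of 9 interaction terms in limma, for Dhh (adjusted p 6.36e-07), Smo (adjusted p 8.54e-05), Gli1 (adjusted p 0.00413), Gli2 (adjusted p 0.000486) and Hhip (adjusted p 7.68e-05). Among the populations where each was tested, the widest differences were in LSEC for Dhh (3.25) and blood for Smo (1.45); for Gli1 (-1.50), Gli2 (-1.32) and Hhip (-1.32) they were in Thy1 cells. These 3 changes were not called when Thy1 libraries were fitted alone, and were called in the fit of all 55 libraries that gave the F tests (limma adjusted p 0.000640 for Gli1, 2.02e-05 for Gli2 and 0.000212 for Hhip). That fit takes a single spread per gene from all groups, most of which were low in these 3 genes. Its p therefore does not measure the spread between Thy1 libraries.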

How the results depend on the processing

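Of 254 recomputed counts of called members, 234 stayed within 1.5 times and 20 moved. Of 940 recomputed single-gene results 895 kept their side of the threshold, 24 lost it, 21 gained it and 0 reversed. Refits in which a gene failed the filter are not among the 940. Many of them are F tests, with 32 or 61 refits per gene. Of the PH calls, Smo in NPD was lost in 6 of 11 refits and Ptch1 in KC in 2 of 12. Dhh in LSEC was lost in 1 of 15 and Smo in blood in 0 of 9. The single fit of 20 groups called 1 member in HSC, 6 in Thy1 cells, 2 in NPD, 3 in blood and 2 between EC and LSEC. It takes a single spread per gene from all groups, so these calls do not measure the spread within each population. For this fit and the settings below, the share of all genes called is not given. The counts therefore say nothing particular to Hedgehog genes. In NPD 0 were called with a pseudocount of 0.1, with no filter and after quantile normalization, and in blood 2 with no filter. Leaving out 1 library gave 0 to 3 in NPD, 0 to 1 in KC, 0 to 1 in blood and 2 to 4 between HSC and Thy1 cells. The 0 in blood and the 2 between HSC and Thy1 cells came from members that no longer met the filter. With the filter minimum lowered to the smaller group, a setting chosen after seeing the data, the counts were 0 to 3 in NPD, 0 in KC, 0 to 3 in blood and 0 to 4 between HSC and Thy1 cells, and 12 of 41 counts moved. Beyond these constructions the cause was not tested. A group left with 1 library is assumed to vary like the others.

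With the replicate block 0 members were called in LSEC (Dhh 3.05, limma adjusted p 0.115), and the numbers did not pair the samples: same-numbered deviations correlated at -0.239 to -0.018 in LSEC and at -0.672 to 0.574 in HC. The Gli2 interaction missed the threshold with a pseudocount of 0.1 (limma adjusted p 0.112). On simulated data 0 of 200 changed genes were recovered in the HSC design (2 normal and 3 PH libraries) and in the Thy1 design. The same 0 was found between HSC and Thy1 cells of normal liver. There 4 Hedgehog genes and 1263 of 13229 genes overall were called in the real data. The simulation changed only 200 genes, so it does not measure the power of the real fit. In NPD 96 and in blood 95 were recovered, where both groups had 2 libraries, as in Thy1 cells.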
